A study of Drosophila melanogaster with 2 samples.

Results

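The cytoplasmic ribosomal protein genes of Drosophila melanogaster were examined for binding of E(var)3-9 in embryos. They were chosen by symbol, as the protein-coding genes whose names begin with RpL or RpS followed by a digit or by P, which gave 92 of the 13945 protein-coding genes annotated on the 6 chromosome arms. Of these, 54 encode proteins of the large ribosomal subunit, including the stalk proteins RpLP0, RpLP1 and RpLP2, and 38 encode proteins of the small subunit. The symbol rule uses no measured value, but the set was proposed with earlier results of these data known. E(var)3-9 was carried as a fusion with green fluorescent protein (GFP) at its C-terminus in 1 stably transformed line, and its chromatin, sonicated to 200 to 800 bp, was pulled down by way of the GFP tag. The study has 1 group, with biological replicates 2 and 3, each from its own biosample of mixed-sex whole embryos collected at 0 to 24 h. The embryos therefore mix stages and tissues, and the labels do not say whether the untagged protein is also present. There was no group to set this one against, so other protein-coding genes of the same libraries serve as the background.

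Ribosomal proteins assemble with ribosomal RNA into the particles that translate every mRNA, and their genes are among the most highly transcribed in growing cells. In flies, transcription of these genes starts in a run of pyrimidines, the TCT initiator, which takes the place of the standard initiator, and factors such as DREF, M1BP and TRF2 are known to act at many of their promoters. The name of E(var)3-9 comes from genetics, where its mutations enhance position-effect variegation, in which a gene moved next to heterochromatin is silenced in some cells and not in others.

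The values are regions called by the authors, each with a summit and a signal value, the caller's own score, larger for stronger regions and without a stated scale. Each replicate list held 30000 regions of peaks and background. The joint list, made from both replicates together, held 24963. From it the authors kept 3438 by the irreproducible discovery rate (IDR), a measure of rank agreement between replicates, and these are called IDR peaks. They were the 3438 joint regions with the highest signal, so passing was a cut on joint signal, and the weakest IDR peak had a signal of 58.2. A region was counted for a gene when its summit lay within 500 bp of any annotated transcription start site (TSS), and where several did, the strongest was used. Read depth is unknown.

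The start sites of the ribosomal protein genes show the pyrimidine run that sets this class apart. The first 8 sequences come from strongly bound genes that hold the letters CTTTC or CTTTT within 5 bases of a TSS and whose windows contain few annotated untranslated bases. They are followed by RpS20, which is strongly bound and holds neither, and RpS3, which holds CTTTC and had no region in any list. Each runs from 30 bases before the TSS to 20 from it, 5′ to 3′ on the gene's own strand in dm6, read from the RefSeq copy of Release 6 of the genome, with the matched letters in capitals.
RpL34b (chr3R:9401207-9401256, minus strand): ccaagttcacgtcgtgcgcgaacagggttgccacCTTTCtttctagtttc
RpL32 (chr3R:30046142-30046191, minus strand): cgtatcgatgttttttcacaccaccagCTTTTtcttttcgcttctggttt
RpL14 (chr3L:8600976-8601025, plus strand): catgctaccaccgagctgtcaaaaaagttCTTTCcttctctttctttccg
RpL23A (chr3L:1668635-1668684, minus strand): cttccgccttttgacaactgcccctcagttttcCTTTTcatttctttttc
RpS3A (chr4:67188-67237, minus strand): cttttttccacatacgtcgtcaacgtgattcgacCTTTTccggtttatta
RpL28 (chr3L:3222939-3222988, minus strand): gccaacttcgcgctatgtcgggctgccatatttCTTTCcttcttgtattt
RpS25 (chr3R:11216268-11216317, minus strand): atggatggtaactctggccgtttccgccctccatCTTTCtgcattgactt
RpS27A (chr2L:10408322-10408371, plus strand): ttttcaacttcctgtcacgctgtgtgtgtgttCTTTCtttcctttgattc
RpS20 (chr3R:20822151-20822200, plus strand): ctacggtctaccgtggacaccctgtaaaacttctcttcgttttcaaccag
RpS3 (chr3R:23358782-23358831, plus strand): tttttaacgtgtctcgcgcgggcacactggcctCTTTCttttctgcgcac
CTTTC or CTTTT was found on the sense strand within 5 bases of a TSS at 57 of the 92 ribosomal protein genes (62.0%), against 716 of all 13945 protein-coding genes (5.13%). The standard initiator, searched as TCAGT in the same span, was found at 0 of 92 ribosomal protein genes and at 15.0% of all protein-coding genes. Large-subunit and small-subunit genes were alike in this, with the pyrimidine letters at 33 of 54 (61.1%) and 24 of 38 (63.2%). The letters did not separate members by IDR peak, as they stood at 29 of the 46 with one (63.0%) and at 28 of the 46 without one (60.9%). Of the members without an IDR peak, 33 had a joint region below the cut.

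The bound promoters can also be seen by the sequence under the summit. The 5 windows below are shown because each holds TATCGATA, the palindromic DNA replication-related element (DRE) bound by DREF, within 100 bp of the summit of an IDR peak. Each is 60 bases on the gene's own strand in dm6, from the same RefSeq genome, with the element in capitals.
RpL28 (chr3L:3223019-3223078, minus strand): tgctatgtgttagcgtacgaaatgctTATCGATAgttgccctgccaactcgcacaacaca
RpS25 (chr3R:11216313-11216372, minus strand): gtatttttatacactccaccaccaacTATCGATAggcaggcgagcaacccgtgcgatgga
RpL34a (chr3R:26059277-26059336, minus strand): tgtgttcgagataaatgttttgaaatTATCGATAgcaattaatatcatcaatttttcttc
RpS10b (chrX:19597928-19597987, plus strand): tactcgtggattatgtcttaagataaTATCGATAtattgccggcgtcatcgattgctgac
RpL26 (chr3L:18898835-18898894, plus strand): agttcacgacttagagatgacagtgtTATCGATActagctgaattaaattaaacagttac
In RpL28 the centre of the element fell on the summit, and in RpS25 it lay 5 bp downstream of it. In RpS10b it lay at −9 bp, in RpL26 at −61 bp and in RpL34a at 92 bp, with negative values upstream of the summit. Placement around the summit thus varied among these genes.

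E(var)3-9-GFP was found at many ribosomal protein genes, mostly at moderate signal. An IDR peak lay within 500 bp of a TSS of 46 of the 92 genes (50%), where 16.5% of all protein-coding genes had one. A joint region of any strength lay at 79 of 92 (85.9%), against 42.4% of all protein-coding genes. The 860 strongest IDR peaks reached 10 of the 92 (10.9%), against a background of 5.25%. With 1 group these counts have no test and are descriptions of these libraries.

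The same was seen in each replicate, with a lower count in replicate 3. The replicate 2 list had a region at 82 members (89.1%; 50.8% of all protein-coding genes), and the replicate 3 list at 58 (63.0%; 37.3%). Among as many strongest regions per replicate as there are IDR peaks, 47 members were reached in replicate 2 (51.1%), beside 16.4% of protein-coding genes. In replicate 3 the strongest regions reached 33 members (35.9%), beside 15.4%. The mean over replicates was 40 ± 9.90 members (SD, n = 2). Members were reached more often than protein-coding genes as a whole in each library taken alone.

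Signal at the bound members was not high among IDR peaks. The joint signal of the 46 genes had a minimum of 59.3, a median of 82.1 and a maximum of 297, where the other 2256 protein-coding genes with an IDR peak had a median of 102. Ranked among all 3438 IDR peaks, 10 of the 46 (21.7%) had their strongest peak at ranks 1 to 860, against 722 of the 2256 others (32.0%). Ranks 1720 to 2579 held the most members, 18 (39.1%), against 508 others (22.5%), out of 4 classes of nearly equal size. Ribosomal protein genes were thus often bound, and their peaks stood lower in the ranking than those of other bound genes, a difference with no test.

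**Figure D1:**
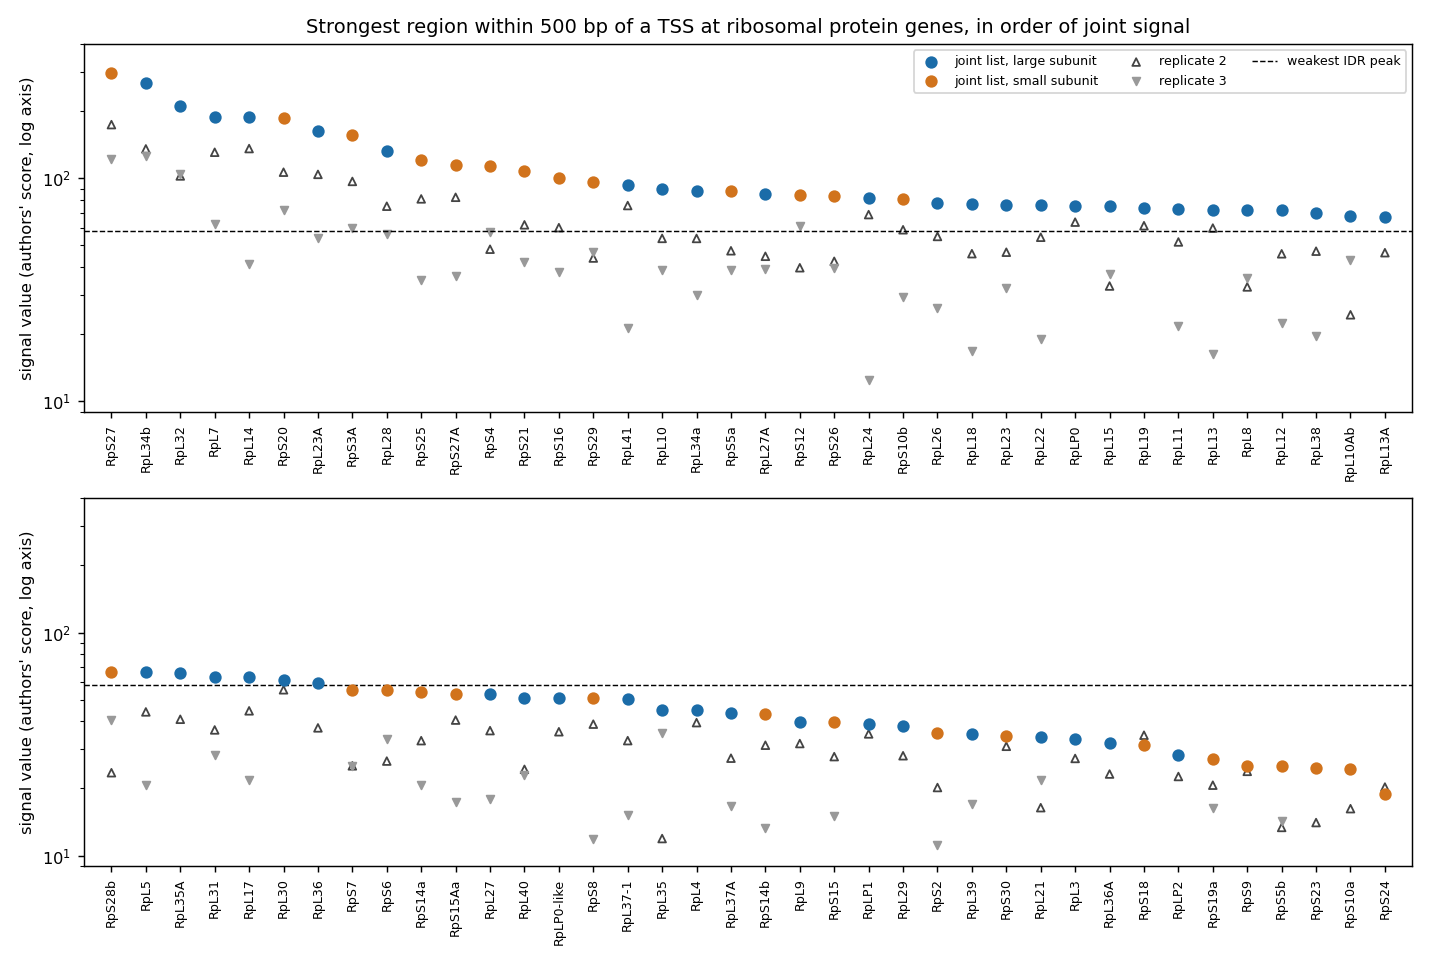
Signal value (authors' score, log axis) of the strongest region within 500 bp of a TSS at 76 of the 79 members with a joint region, in descending order over both panels; filled circles are the joint list, blue for the large and orange for the small subunit, open triangles replicate 2 and grey triangles replicate 3. The dashed line is the weakest IDR peak at 58.2; 45 of the plotted genes lie above it, from RpS27 at 297 to RpL36 at 59.3, and 31 below.

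The strongest member was RpS27, a zinc-finger protein of the small subunit. Its IDR peak, chr3R:25247401-25247648, had a joint signal of 297, the 123rd highest of all, with 174 in replicate 2 and 122 in replicate 3. RpL34b, a large-subunit protein, followed with a joint signal of 267, at chr3R:9401206-9401370, with 135 in replicate 2 and 126 in replicate 3. RpL32, also called rp49 and widely used as a reference transcript in flies, had 211, with 102 in replicate 2 and 104 in replicate 3. These 3 genes, all on 3R, were the only members above 100 in both replicates.

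The next members were high in replicate 2 and lower in replicate 3. RpL7, of the large subunit, had a joint signal of 189, with 131 in replicate 2 and 62.5 in replicate 3. RpL14, also of the large subunit, had 188, with 136 in replicate 2 and 41.3 in replicate 3. RpS20, of the small subunit, had 187, with 106 in replicate 2 and 72.1 in replicate 3. In RpL14 the replicates thus stood farther apart than in the other two.

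RpL23A had a joint signal of 163, with 104 in replicate 2 and 54.2 in replicate 3. RpS3A, the 1 ribosomal protein gene on chromosome 4, had 156, with 96.8 in replicate 2 and 59.8 in replicate 3. Neither of these peaks had another gene start within 500 bp. RpL28 had 132, with 75.0 in replicate 2 and 56.2 in replicate 3. RpL28 was the last member among the 860 strongest IDR peaks. RpS25 had 121, with 80.9 in replicate 2 and 35.1 in replicate 3. RpS27A, which is made as a fusion with ubiquitin, had 115, with 82.2 in replicate 2 and 36.5 in replicate 3. In each of the genes just described except RpL32 the replicate 2 value was the higher.

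The cut fell within a continuous run of values. The 5 members just above it were RpL35A at 65.8, RpL31 at 63.4, RpL17 at 62.9, RpL30 at 61.0 and RpL36 at 59.3 joint signal. The 5 just below were RpS7 and RpS6 at 55.4 each, RpS14a at 54.3, RpS15Aa at 53.1 and RpL27 at 53.0. All 5 above belong to the large subunit and 4 of the 5 below to the small one. RpS6, the protein phosphorylated by S6 kinase, shared its region with the ribosome assembly gene bys, whose strongest joint region had the same signal of 55.4.

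A small number of members had no joint region. RpL6, RpL7-like and RpS28a had a region in the replicate 2 list alone, with signals of 16.9, 12.1 and 10.4, and RpL7A had one in each replicate list, with 12.7 in replicate 2 and 13.3 in replicate 3, whose summits lay at −46 and −499 bp from a TSS. No region in any list was found at RpL10Aa, RpL22-like, RpL24-like, RpL37-2, RpS13, RpS15Ab, RpS19b, RpS28-like or RpS3. Of these 9, RpS13 and RpS3 are members without a second copy by name, and RpS3 is a small-subunit protein that also has DNA repair activity. With the read depth unknown, a missing region is not shown to mean absence of the protein.

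By subunit, IDR peaks were found at 32 of 54 large-subunit genes (59.3%) and at 14 of 38 small-subunit genes (36.8%), a difference of 22.4 percentage points. This order did not hold in both replicates. In replicate 2 the strongest regions reached 32 of 54 large-subunit genes (59.3%) and 15 of 38 small-subunit genes (39.5%), a difference of 19.8 points. In replicate 3 they reached 17 of 54 (31.5%) and 16 of 38 (42.1%), and the difference was −10.6 points. The small-subunit count was nearly the same in either library, and the large-subunit count moved between them. Among the 860 strongest IDR peaks were 7 of 54 large-subunit genes (13.0%) and 3 of 38 small-subunit genes (7.89%), 5.07 points apart. Joint regions of any strength lay at 47 of 54 large-subunit genes (87.0%) and 32 of 38 small-subunit genes (84.2%).

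Among genes with an IDR peak the median signal did not follow the counts. The large-subunit genes with an IDR peak had a median joint signal of 75.6 and a maximum of 267, and the small-subunit genes a median of 104 and a maximum of 297. Over all members with a joint region the order was the other way. The median was then 69.7 for 47 large-subunit genes and 54.9 for 32 small-subunit genes. The 3 stalk proteins, which contact the translation GTPases, were at or below the median of 75.6 of the large-subunit genes with an IDR peak. RpLP0 had an IDR peak with a joint signal of 75.5, and RpLP1 and RpLP2 had regions below the cut at 38.9 and 28.3. None of the 3 had a region in the replicate 3 list, and in replicate 2 they had 63.6, 35.1 and 22.6.

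The replicates stood farther apart at the bound ribosomal protein genes than at other bound genes, a difference that has no test here. All 46 members with an IDR peak had a region in the replicate 2 list, and 40 (87.0%) had one in the replicate 3 list. For the other 2256 protein-coding genes with an IDR peak, the shares were 99.6% and 96.5%. The 6 members without a replicate 3 region were RpLP0, RpL19, RpL13A, RpL35A, RpL30 and RpL36, all of the large subunit, with replicate 2 signals between 37.4 for RpL36 and 63.6 for RpLP0. They passed the cut on joint signal while 1 library listed nothing within 500 bp of their TSSs.

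Over all 92 members, 57 had a region in both replicate lists, 25 in that of replicate 2 alone, 1 in that of replicate 3 alone and 9 in neither. The 1 was RpL39, with 17.0. Besides the 6 with an IDR peak and the 3 replicate-2 members named above with no joint region, the genes found in replicate 2 alone included RpLP0-like, RpL4, RpL9, RpLP1, RpL29, RpS30, RpL3, RpL36A, RpS18, RpLP2, RpS9, RpS23, RpS10a and RpS24. The signals of those named ran in that replicate from 14.1 for RpS23 to 39.5 for RpL4.

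Where both replicates had a region, the replicate 2 value was mostly the higher. The 2 lists are not shown to share a scale, so a ratio of their signals may hold a difference of scale, which was not tested. The median log2 ratio of replicate 2 to replicate 3 signal was 0.68 over 40 members with an IDR peak, of which 32 (80.0%) were higher in replicate 2, and 0.40 over 2169 other genes with one, of which 77.7% were. For large-subunit members with a region in both lists the median was 0.94 (n = 33), and for small-subunit members 0.56 (n = 24). RpL24 stood farthest toward replicate 2 among those with an IDR peak, with 68.8 in replicate 2 and 12.4 in replicate 3, and its replicate 3 region was another one, 442 bp from the replicate 2 summit. RpS28b, at 23.5 in replicate 2 and 40.6 in replicate 3, went the other way. RpL10Ab had 24.4 in replicate 2 and 43.0 in replicate 3, but the summits lay 288 bp apart and so the values are of different places.

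Across members with an IDR peak and a region in both lists, Spearman's rho between replicate signals was 0.34 and Pearson's r of log2 signal 0.47 (n = 40). Over the other genes with an IDR peak they were 0.71 and 0.76 (n = 2169). These are descriptions over genes that share the same 2 libraries, and the members cover a narrower range of signal. The replicate summits lay a median of 43.5 bp apart at members and 35.0 bp at the others, and within 150 bp at 35 of 40 members (87.5%) and 93.9% of the others.

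**Figure D2:**
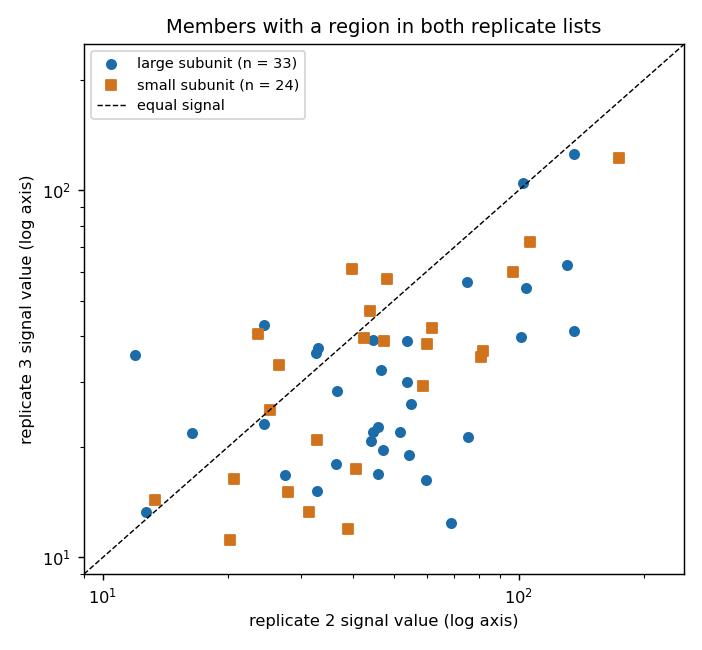
Signal value in replicate 2 (x, log axis) and replicate 3 (y, log axis) of the 57 members with a region in both lists, blue circles for 33 large-subunit and orange squares for 24 small-subunit genes; the dashed line marks equal signal. Of the 57, 44 lie below the line, with the higher signal value in replicate 2.

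The summits sat close to the start sites, on the upstream side. For the 46 members the summit of the strongest IDR peak lay at a median of −85.0 bp from the nearest TSS, negative being upstream, with quartiles at −127 and −45.8 and a range from −304 to 51. It was upstream in 42 of 46 (91.3%), as in 91.2% of the other genes with an IDR peak. Members differed in distance. Summits lay from 0 to 150 bp upstream at 33 of 46 members (71.7%) and at 41.0% of the others, and more than 250 bp upstream at 4 members (8.70%) and at 24.2% of the others, whose median was −152.

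The nearer position was seen in each replicate. Among the strongest regions of replicate 2 the median was −60.0 for 47 members and −149 for 2245 other genes. In replicate 3 it was −110 for 33 members and −158 for 2119 others. The members' medians of the 2 replicates thus differed, and both were nearer the TSS than the others'. Large-subunit members had a median of −90.0 and small-subunit members of −67.5. Members with an IDR peak have a mean of 1.80 annotated start sites, against 1.41 over all protein-coding genes, which bears on the distance to the nearest. No such mean is given for the other genes with an IDR peak. With the 5′ end of the gene as its only TSS, the members' median was −83.5. No value of this kind is given for the others, so the part of start-site number in the difference was not tested.

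**Figure D3:**
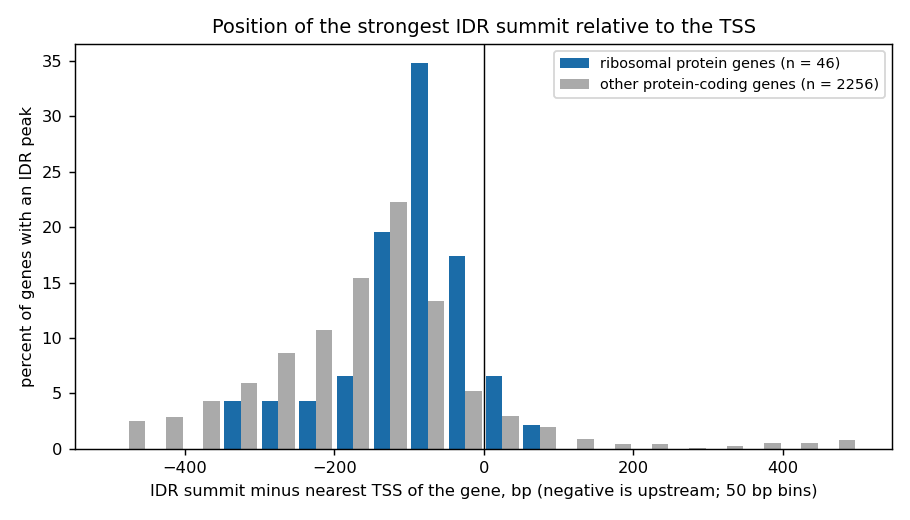
Distance from the nearest TSS to the summit of the strongest IDR peak (x, bp, negative upstream, in 50 bp bins) as a percent of genes (y), in blue for 46 ribosomal protein genes and in grey for 2256 other protein-coding genes. The members gather within 150 bp upstream (71.7%), where the others have 41.0%.

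By gene, most summits fell outside the transcribed sequence. Of the 46, 35 lay in intergenic sequence, 7 in a 5′ untranslated region and 4 in an intron, of whichever gene covers the summit. Those of RpL18 and RpL13 (5′ untranslated region) and of RpL41 (intron) lay upstream of the member, in another gene. At or downstream of a TSS were RpL26 at 51 bp, RpS21 at 19 bp, RpL7 at 12 bp and RpL19 at 3 bp. Farthest upstream were RpL10Ab and RpS12, at −304 bp each, then RpL18 at −286 and RpL23 at −279. RpL10Ab, RpS12 and RpL23 also had a weaker IDR summit nearer the TSS, at −98, −92 and −78 bp with joint signals of 63.0, 71.5 and 61.2. In RpS27, RpS3A and RpL27A the order was reversed, the stronger summit being the nearer and the weaker one lying at −235, −284 and −265 bp.

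Many of these promoters are shared. At 29 of the 46 members (63.0%) the summit was also within 500 bp of a TSS of a gene outside the set, as at 62.5% of the other genes with an IDR peak. At 24 (52.2%; 59.9% of the others) the neighbour encodes a protein, and in 23 of those 24 it is transcribed in the opposite direction from a divergent start site. The 29 include RpS29 and RpL15, whose only such neighbour is a snoRNA gene starting inside the member itself. Counted with any gene, sharing was about as frequent as at other bound genes. Counted with protein-coding neighbours alone, it was somewhat less frequent, a difference with no test. The member's TSS was nearer to the summit in 14 of the 24 pairs, the neighbour's in 9 and neither in 1. Shared peaks had a median joint signal of 87.9 and unshared ones 80.5, and 8 shared and 2 unshared peaks were among the 860 strongest.

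The strongest members show both kinds. The summit of RpS27 lay at −29 bp from its own TSS and −115 from that of Nup37, which encodes a nuclear pore protein. That of RpL14 lay at −39 bp and at −88 bp from Nelf-E, a subunit of the negative elongation factor. RpL7 starts 30 bp from the divergent Ripalpha, with the summit 12 bp inside RpL7 and −42 from Ripalpha. These 3 summits were nearer the ribosomal protein gene, as were those of RpL34b (−98, against −171 from CG8132), RpS25 (−60, against −188 from CG4820) and RpL28 (−88, against −293 from eIF1, a start-codon selection factor).

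For others the neighbour was the nearer. The summit counted for RpL32 lay at −216 bp from it and −93 from CG7943, and that for RpS20 at −172 and at −161 from CG17271. RpS27A and Ip259 are read in the same direction from the same TSS, at −109. A shared summit cannot be assigned to 1 of its genes from these lists.

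Of the weaker peaks, RpL36 at −17 bp faced Mybbp1A at −273 and RpL31 at −84 faced CG12929 at −395. RpL17 had a tRNA gene for phenylalanine, tRNA:Phe-GAA-1-2, upstream on the same strand, and the summit lay 191 bp downstream of the start of that gene. RpLP0 shared its peak with CG7130, RpL34a with Trmt61, a tRNA methyltransferase subunit, RpL10Ab with CG5946, and RpL13A with Dph4. RpL22 shared with a long noncoding RNA gene, lncRNA:CR44966, and RpL13 with Dref, which encodes the factor that binds the DRE. The RpL13 and Dref summit, with a joint signal of 72.2, was 156 bp upstream of RpL13 and 72 bp inside Dref.

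IDR peaks at more than 1 copy were found in 1 family of duplicated genes. Whether that is fewer than the share of copies with a peak would give was not tested. By name there are 13 families with 27 copies. In 8 families 1 copy had an IDR peak, in RpL34 both did, and in 4 (RpL37, RpS14, RpS15A and RpS19) none did. IDR peaks were found at 10 of the 27 copies (37.0%) and at 36 of the 65 members outside families (55.4%), beside 16.5% of all protein-coding genes. Joint regions were found at 18 copies (66.7%) and at 61 members outside families (93.8%), beside 42.4%. Of the 13 members with no joint region, 9 are copies.

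In the large subunit, RpL34b had a joint signal of 267, against 87.9 for RpL34a. RpL7 had 189, and RpL7-like had only a replicate 2 region of 12.1. RpL24 had 81.2, RpL22 had 75.6 and RpL10Ab had 67.5, while RpL24-like, RpL22-like and RpL10Aa had no region. RpLP0 had 75.5 and RpLP0-like had 50.8, and RpL37-1 had 50.3 with nothing at RpL37-2. In yeast the relatives of RpL24-like, RpL7-like and RpLP0-like act in ribosome assembly and are not part of the finished ribosome, so the symbol rule takes in a few genes that may not encode ribosomal proteins in the strict sense. None of the genes with names in -like had an IDR peak, so leaving them out could not change the count of 46. The large minus small difference went from 22.4 to 26.2 percentage points without them.

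In the small subunit, RpS5a had a joint signal of 87.4, against 25.1 for RpS5b. RpS10b had 80.5, against 24.4 for RpS10a. RpS28b had 66.9, RpS28a only a replicate 2 region of 10.4, and RpS28-like nothing. RpS15Aa, at 53.1, and RpS19a, at 27.2, were below the cut, and RpS15Ab and RpS19b had no region. RpS14a and RpS14b, which lie 220 bp apart on X, had 54.3 and 43.2.

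Copies can differ in signal though alike in coding sequence, as in RpS15A. RpS15Aa and RpS15Ab, of which only RpS15Aa had a region, were 98.2% identical over their coding sequence. RpS14a and RpS14b, closer in joint signal at 54.3 and 43.2, were 97.8% identical. The other pairs ranged from 44.5% to 77.7%. In the 300 bp promoter window the longest run of bases that the copies of a pair shared was between 8 and 11. Called regions such as those of RpS14b and RpS15Aa also reach into the genes, and the sequences of the regions themselves were not compared. The sources used here do not say how the authors placed reads that match more than 1 site.

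**Figure D4:**
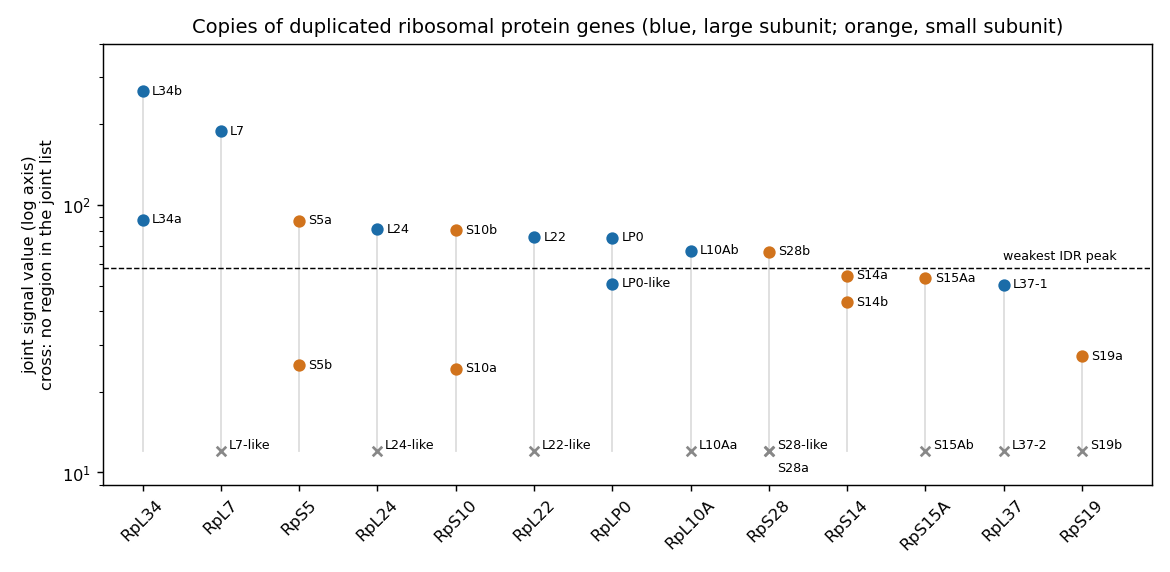
Joint signal value (log axis) of the strongest region at each copy of the 13 families of duplicated ribosomal protein genes, in order of the stronger copy; blue is the large subunit, orange the small one, and a cross at the foot marks a copy with no region in the joint list. In RpL34 alone do both copies lie above the weakest IDR peak (dashed line).

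The members were spread over all arms. IDR peaks were found at 12 of 14 members on 3L (85.7%), 9 of 19 on 2L (47.4%), 9 of 21 on 2R (42.9%), 6 of 14 on X (42.9%), 9 of 23 on 3R (39.1%) and at RpS3A on chromosome 4. Over all protein-coding genes the shares ran from 13.8% on X to 17.9% on 3L, with 32 of 80 on chromosome 4. Many ribosomal protein genes host snoRNA genes, which guide modification of ribosomal RNA, in their introns. Hosts numbered 19 of the 46 members with an IDR peak, holding 54 snoRNAs, and 9 of the 46 without one, holding 20. No share of hosts is given for other protein-coding genes, and a link between hosting and binding was not tested. RpS5a held 14, the most of any member, and had a joint signal of 87.4.

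Promoter motifs were counted from 250 bp before to 50 bp from the 5′ end of each gene, 300 bp in all, on both strands. The DRE, TATCGATA, was found at 28 of 92 members (30.4%) and at 9.36% of all protein-coding genes. It was at 13 of 46 members with an IDR peak (28.3%) and at 15 of 46 without one (32.6%). Motif 1, GGTCACAC, the site bound by M1BP, was at 14 of 92 (15.2%; 7.70% of all genes). It was at 4 of the 46 with an IDR peak (8.70%) and at 10 of the 46 without one (21.7%). Both motifs were thus more frequent at members than over all protein-coding genes. At the other 2256 protein-coding genes with an IDR peak, the DRE stood at 13.6% and Motif 1 at 9.22%. Motif 1 was therefore no more frequent at members with an IDR peak than at other genes with one. Neither motif was more frequent at members with an IDR peak than at members without one.

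CGATA, the short site of the insulator protein BEAF-32, which is contained in every DRE, was at 67 of 92 members (72.8%) and at 47.4% of all genes. It was at 36 of 46 members with an IDR peak (78.3%) and at 31 of 46 without one (67.4%). CAGCTG, called Motif 5, was at 9.78% of members and 17.7% of all genes. GAGAG, the site of the GAGA factor, was at 17.4% and 29.7%. TATAAA was at 47.8% and 45.8% and CACACACA at 3.26% and 4.02%, so those 2 were about as frequent in either set.

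Within 100 bp either side of the summit the DRE was found at 10 of the 46 member peaks (21.7%) and at 3.14% of all 3438 IDR peaks. Motif 1 was at 4 member peaks (8.70%), against 1.28%, and CGATA at 28 (60.9%), against 28.3%. GAGAG was at 3 (6.52%), against 19.9%. The members' peaks lie nearer to start sites than IDR peaks as a whole, and the part of that in these shares was not tested. A match is a run of letters, and no match says only that those letters are not in the window.

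**Figure D5:**
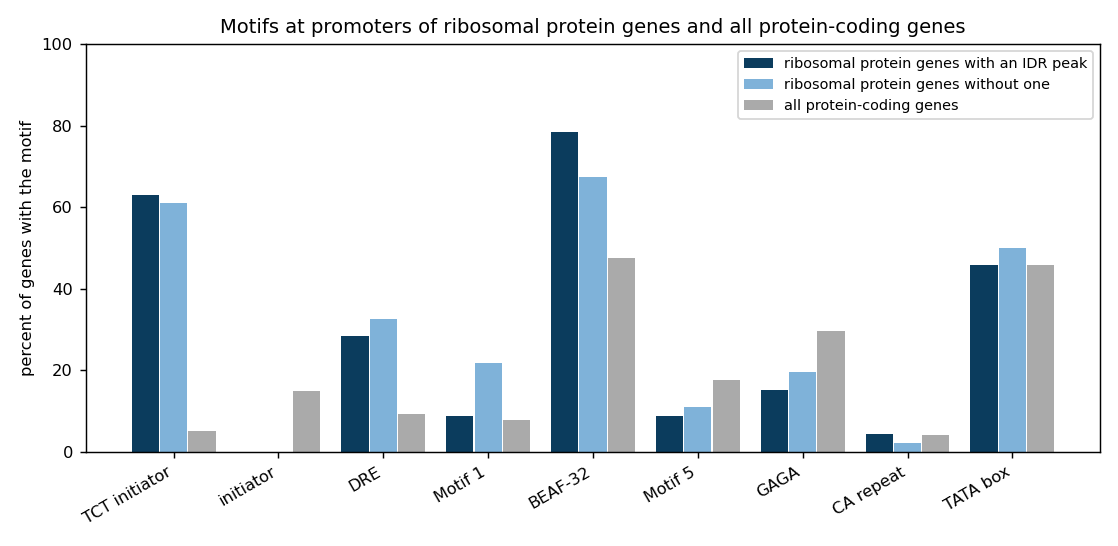
Percent of genes (y) with each motif, from left to right in each group for 46 ribosomal protein genes with an IDR peak, 46 without one and all 13945 protein-coding genes; TCT initiator and initiator were searched within 5 bases of a TSS on the sense strand and the others over 300 bp of promoter on both strands. The TCT letters stood at 63.0% and 60.9% of the ribosomal protein genes and at 5.13% of all genes.

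Other genes of the translation machinery were taken from lists. Of the remaining small-subunit proteins, Rack1, a scaffold on the small subunit, had an IDR peak with a joint signal of 101, shared with mts, and sta had a region below the cut at 31.3. Rack1 had 69.5 in replicate 2 and no region in replicate 3. Of 9 elongation and release factors, 5 had an IDR peak (55.6%), where 16.5% of all protein-coding genes had one. These were eEF1gamma at 146, eRF3 at 108, eRF1 at 104, eEF5 at 104 and eEF1alpha1 at 85.7. The peak of eRF3 was shared with SC35 and that of eRF1 with Rbbp5, and eRF1 had no region in replicate 3.

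Of the 24 genes listed for ribosome biogenesis 23 were matched and 12 had an IDR peak (52.2%), again beside 16.5% of all protein-coding genes. The strongest was eIF6, which keeps the subunits apart, with a joint signal of 382, with 193 in replicate 2 and 190 in replicate 3. Ns2, a nucleolar GTPase, had 283, with 153 in replicate 2 and 125 in replicate 3. NHP2, l(3)72Dn and CG7246 had between 111 and 114. Nopp140, Nnp-1, nop5, Non1, Fib and Nop60B had between 68.3 and 87.6, close to the ribosomal protein genes' median of 82.1. Fib had no region in replicate 3. Of the 12 peaks, all but those of nop5 and NHP2 were shared with another gene. That of eIF6 was shared with an antisense RNA gene and that of Ns2 with POSH. Rrp1, at 216, is a DNA repair gene that the list holds by its name, and without it 11 of 22 (50%) had an IDR peak. Of 6 genes for factors that bind ribosomal protein gene promoters, 4 had an IDR peak, M1BP at 212, Trl at 105, BEAF-32 at 98.4 and Dref at 72.2. M1BP shared its peak with CG8202, BEAF-32 with an antisense RNA gene and Dref with RpL13. Trf2 had a region below the cut at 40.6, and Myc had no region in any list.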

How the data were processed

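Chromatin immunoprecipitation of E(var)3-9-GFP was sequenced in 2 biological replicates of whole embryos. The authors deposited region lists in dm6, per the deposited notes: candidate regions (peaks and background) of each replicate and of the pooled replicates with a control, meant as IDR input, and the pooled regions kept by IDR. The signal value is a score given in the deposited lists, used to rank and describe regions. It is also set side by side between the replicate lists, which are not shown to share a scale. The sources used here name no aligner, caller or threshold. The control, the signal tracks and the dm3 lists are not analysed here. Read depth is unknown, so no interval resting on reads is given.

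Summits were read as region start plus the deposited summit offset. Genes and TSSs came from the Ensembl annotation, release 115, of the same assembly, and sequence from RefSeq's Release 6 genome. Promoter motifs were searched at the 5′ end of each gene and initiators at every TSS. Families were members left with the same symbol once a final a, b, -like, -1 or -2 was removed. There was 1 group and no test between conditions. The members and lists were chosen with earlier results of these data known, and all counts are descriptions.

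Genes named by rule were the 12 members with the strongest IDR peaks, 5 on each side of the cut, every copy of a family, members in 1 replicate list alone or in none, the nearest other gene to those peaks, and genes of the pathway lists with an IDR peak. Some genes that meet this rule are not reported here by name and are left out of the plot of signals by gene. They stay in all counts. Others named, at the ends of a range or with a feature of interest, were chosen after their values were seen. Alternatives were distances of 250 and 1000 bp, 1 TSS per gene, regions over the TSS, the 860 strongest IDR peaks, each replicate alone, no -like genes, motifs around the summit, and motifs on the sense strand. Leaving out Rrp1 was added after the data were seen. The matching of summits and motifs was tested on simulated data. Python 3.11.15 was used with numpy 2.4.6, pandas 2.3.3, Biopython 1.88 and matplotlib 3.10.9.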

Additional observations from a re-analysis of the deposited data

How the results depend on the processing

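Of 78 recomputed values, 55 stayed within 1.5 times for counts, within 1 SD of the replicates for medians and differences, or within the 95% Wilson interval for motif shares. Another 22 moved past these bounds and 1 changed sign. Replicate 3 alone turned the large minus small difference, which ran from −10.6 to 19.8 percentage points over the single replicates, because the large-subunit count ran from 17 to 32. The small-subunit count ran from 15 to 16 and that of all members from 33 to 47. The median signal ran from 39.5 to 53.8 on the single-replicate scale, and the families with peaks at more than 1 copy from 1 to 2. With the 860 strongest IDR peaks there were 10 members, 7 large-subunit and 3 small-subunit, with a median signal of 187, 8 shared peaks, 0 families with peaks at more than 1 copy, and a large minus small difference of 5.07 points, against 22.4 with all IDR peaks. That difference counts as within bounds only because the replicates lie so far apart. Shared peaks fell to 18 at 250 bp and to 14 when the region had to cover a TSS. Around the summit, over the 46 members with an IDR peak in place of all 92, the motif shares were 21.7% for the DRE, 8.70% for Motif 1, 60.9% for CGATA, 6.52% for GAGAG, 0.0% for CACACACA and 26.1% for TATAAA. On the sense strand alone CGATA had 56.5%, GAGAG 7.61%, CACACACA 1.09% and TATAAA 33.7%. The shares around the summit differ from the main ones in gene set, window position and window length at once. Among those 46 members the promoter window had 28.3% for the DRE, 8.70% for Motif 1, 78.3% for CGATA, 15.2% for GAGAG, 4.35% for CACACACA and 45.7% for TATAAA. For the values that moved with a replicate, the cause was not tested.

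The signal value has no stated scale, the read depth is unknown, and a gene below the cut or without a region is not shown to lack the protein. No paired analysis was possible because there is 1 group.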
